A study of Mus musculus with 6 samples.

Results

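The 10 genes described here encode enzymes that make leukotrienes, prostaglandin D2 and thromboxane, together with an enzyme that breaks down platelet-activating factor (PAF). They were listed by symbol rather than by a threshold on their values, as *Alox5*, *Alox5ap*, *Lta4h*, *Ltc4s*, *Ptgs1*, *Ptgs2*, *Hpgds*, *Ptgds*, *Tbxas1* and *Pla2g7*, and each symbol matched 1 of the 46078 genes in the count tables. RNA-Seq was performed on brain tissue of wild-type C57BL/6J mice with a label age of 3 months, male per the study's methods, which received a distal middle cerebral artery occlusion with hypoxia (DH stroke). The comparison is between 3 infarcts and 3 contralateral cortices, all taken at 7 weeks after stroke. The contralateral cortex is the opposite hemisphere of mice that had a stroke, and no tissue from mice without a stroke was analysed here. The labels do not state which infarct and cortex came from 1 mouse or that replicates are separate mice, so *p* values measure the spread between these samples.

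Eicosanoids are lipid mediators made from arachidonic acid, a fatty acid that phospholipases A2 free from membranes. In the leukotriene branch, 5-lipoxygenase (*Alox5*) works with its activating protein (*Alox5ap*) to make leukotriene A4, which leukotriene A4 hydrolase (*Lta4h*) turns into the neutrophil attractant leukotriene B4, and leukotriene C4 synthase (*Ltc4s*) turns into cysteinyl leukotrienes. In the prostanoid branch, the cyclooxygenases (*Ptgs1* and *Ptgs2*) make prostaglandin H2, from which separate synthases make prostaglandin D2 (*Hpgds* and *Ptgds*) and thromboxane A2 (*Tbxas1*). In the brain, *Ptgs2* is known as a gene of excitatory neurons that is induced by activity, *Ptgds* as a gene of the leptomeninges, choroid plexus and oligodendrocytes, and *Hpgds*, *Tbxas1* and *Alox5ap* as genes of microglia and macrophages.

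Counts on genes totaled between 11943570 and 19933962 per library, and no pair of replicates agreed within sampling noise. Of 15554 genes tested with edgeR, 3999 (25.7%) were called higher and 3256 (20.9%) lower in infarcts, which required a change of more than 2-fold in addition to an adjusted *p* under 0.05. The median log2 fold change was 0.03. Levels are given as CPM (counts scaled to library size) after TMM scaling, which corrects for differences in library composition, and errors as SD with *n* = 3 unless stated.

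The enzymes did not all rise. Of the 10 genes, 6 were called higher in infarcts, beside 25.7% of all tested genes (*Alox5*, *Alox5ap*, *Hpgds*, *Ptgds*, *Tbxas1* and *Pla2g7*), 3 were tested and not called (*Lta4h*, *Ptgs1* and *Ptgs2*), and *Ltc4s* had too few reads to be tested. None was called lower by edgeR, and the number lower at an unadjusted *p* under 0.05 was also 0, as were the numbers called lower by DESeq2 and by limma voom. In 9 of the 10 genes every infarct lay above every contralateral cortex, an arrangement found in 37.6% of all tested genes. Among the 10 genes, the prostaglandin D and thromboxane synthases and the 5-lipoxygenase activating protein showed the largest differences, whereas both cyclooxygenases, which supply the prostanoid synthases, differed by 1.25-fold and 1.28-fold.

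**Figure D1:**
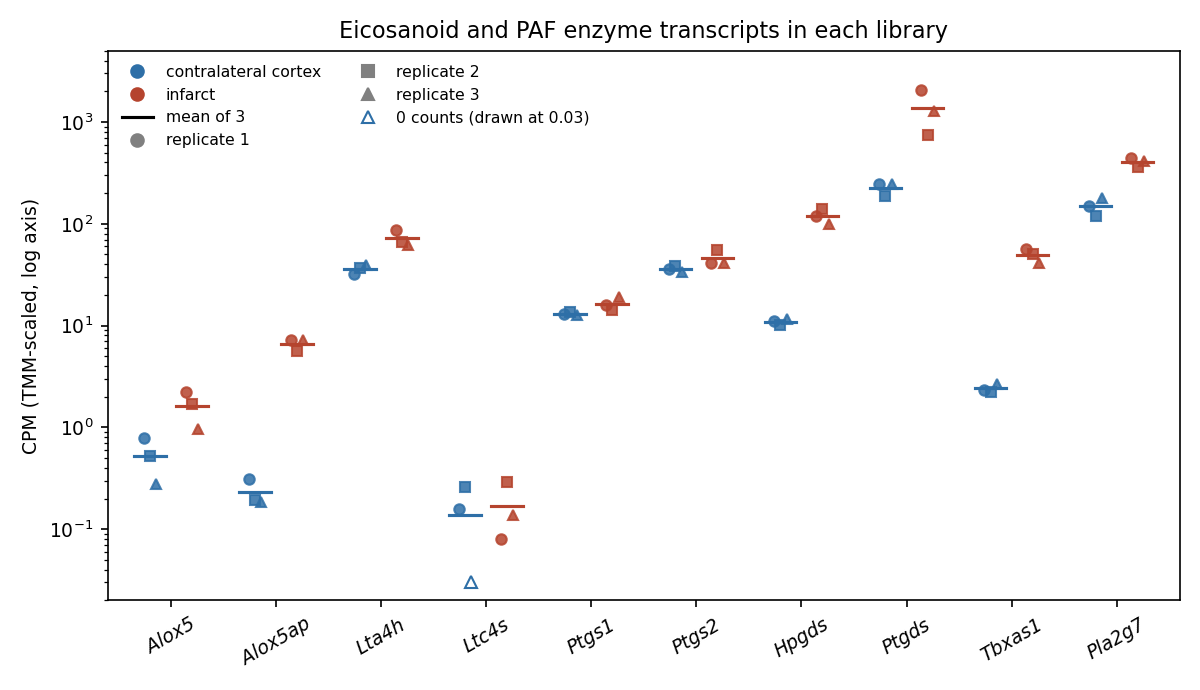
CPM of each enzyme gene in each library, on a log axis, with contralateral cortices in blue, infarcts in red, symbols for the replicates and bars for the mean of 3. *Alox5ap*, *Hpgds*, *Ptgds* and *Tbxas1* are well separated between regions, *Ptgs1* and *Ptgs2* nearly level, and *Ltc4s* lies below 0.3 CPM in every library, with 0 counts in contralateral replicate 3.

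To compare genes with one another, mean CPM was divided by the total exon length of each gene. In contralateral cortices *Ptgds* had the highest level (137 ± 20.1 CPM per kilobase), followed by *Pla2g7* (51.2 ± 9.90), *Ptgs2* (7.82 ± 0.501), *Lta4h* (5.94 ± 0.603), *Ptgs1* (3.38 ± 0.105) and *Hpgds* (1.69 ± 0.113). *Tbxas1* (0.265 ± 0.0261), *Alox5ap* (0.163 ± 0.0503), *Ltc4s* (0.137 ± 0.129) and *Alox5* (0.128 ± 0.0617) formed the lower end, where the libraries of the last 3 overlapped and their order was not resolved. In infarcts *Ptgds* (828 ± 407 CPM per kilobase) and *Pla2g7* (140 ± 13.5) remained at the head. *Hpgds* came next at 18.5 ± 3.19, above *Lta4h* (11.8 ± 2.09) and *Ptgs2* (10.03 ± 1.77), which overlapped each other. *Tbxas1* (5.40 ± 0.840), *Alox5ap* (4.69 ± 0.662) and *Ptgs1* (4.21 ± 0.643) followed, each overlapping its neighbor, and *Alox5* (0.396 ± 0.156) and *Ltc4s* (0.168 ± 0.109) were last and overlapped too. When the length of the longest transcript was used in place of all exons, the first 4 places in infarcts and the first 2 in contralateral cortices stayed as they were. *Lta4h* then stood above *Ptgs2* in contralateral cortices.

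The bases before the start site are shown for *Alox5* and *Ptgs1*, because these enzymes open the leukotriene and prostanoid branches and only the former was called. Both are the 250 bases upstream of the RefSeq start on GRCm38.p6, read 5′ to 3′ along the gene, at chr6:116461179-116461428 on the minus strand for *Alox5* and chr2:36230176-36230425 on the plus strand for *Ptgs1*, and neither holds an annotated exon. Capitals mark a GC box (GGGCGG) in *Alox5* and a match to the PU.1 motif (GAGGAAGT) in *Ptgs1*.
*Alox5*: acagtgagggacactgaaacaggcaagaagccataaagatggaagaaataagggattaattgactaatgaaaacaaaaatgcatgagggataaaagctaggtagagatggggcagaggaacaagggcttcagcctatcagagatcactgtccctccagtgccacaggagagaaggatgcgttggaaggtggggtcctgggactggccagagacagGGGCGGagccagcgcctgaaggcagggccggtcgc
*Ptgs1*: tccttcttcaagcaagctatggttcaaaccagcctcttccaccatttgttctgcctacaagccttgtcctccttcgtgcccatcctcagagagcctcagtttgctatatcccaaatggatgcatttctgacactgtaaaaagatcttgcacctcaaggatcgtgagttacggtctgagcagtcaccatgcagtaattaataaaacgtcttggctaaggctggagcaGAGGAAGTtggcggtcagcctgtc

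RefSeq windows were at hand for 9 of the 10 genes, and 7 motifs were searched on both strands of each. PU.1 is a transcription factor of myeloid cells, and its motif, found in 2.44% of 27025 such windows, was present upstream of *Ptgs1* and *Hpgds*, of which the latter was called and the former was not. The GC box (32.9% of windows) was present upstream of *Alox5*, *Ptgs2* and *Pla2g7*, the AP-1 motif TGANTCA (6.87%) upstream of *Ptgds* and *Tbxas1*, the C/EBP motif TTNNGCAA (9.55%) upstream of *Ptgs2* and *Hpgds*, and TATAAA (13%) upstream of *Tbxas1*, where 2 matches on opposite strands overlap. ACGTCA of the cAMP response element (6.56%) and GGANTTTCC of NF-kB (1.05%) were found in none of the 9 windows, and those of *Lta4h* and *Ltc4s* held none of the motifs. Bases outside the windows, including those after the RefSeq start, were not searched, so a motif there would be missed. Some windows overlap annotated exons, with 146 of 250 bases for *Tbxas1*, 182 for *Pla2g7*, 93 for *Ptgds*, 178 for *Hpgds*, 183 for *Ptgs2* and 84 for *Ltc4s*. Those of *Tbxas1*, *Pla2g7* and *Ptgds* lie inside the annotated span of the gene. One match each for *Hpgds*, *Ptgds* and *Ptgs2*, of the prostanoid branch, is shown with its neighboring bases, motif in capitals, at chr6:65144761-65144790 (minus strand) for *Hpgds*, chr2:25469767-25469795 (minus strand) for *Ptgds* and chr1:150099951-150099980 (plus strand) for *Ptgs2*. The first and second lie under exons of longer transcripts of the same gene and the third under an exon of the antisense gene *Ptgs2os*.
*Hpgds*, PU.1: gcttttaggtgGAGGAAGTggcctctggct
*Ptgds*, AP-1: gaggccaagccTGACTCAtaaataggggg
*Ptgs2*, C/EBP: cgctgcggttcTTGCGCAActcactgaagc

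In the leukotriene branch, the largest difference was that of *Alox5ap* (chr5:149264767-149288153), the membrane protein that presents arachidonic acid to 5-lipoxygenase. Infarcts 1, 2 and 3 held 91, 76 and 105 reads of it and contralateral cortices 1, 2 and 3 held 6, 3 and 2, which correspond to 7.25, 5.58 and 7.17 CPM against 0.313, 0.195 and 0.185 CPM. Every infarct was far above every contralateral cortex. The log2 fold change was 4.75 (SE 0.37, 95% confidence interval 3.91 to 5.58, edgeR adjusted *p* = 3.69e-06), and 4.24% of all tested genes had a larger one. Of its exon bases, 13.3% lie under *Gm19719* on the other strand, and the strand setting of the counting is not given in the sources used here.

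*Alox5* (chr6:116410077-116461178), the lipoxygenase itself, was much scarcer, with 28, 23 and 14 reads in the infarcts and 15, 8 and 3 in the contralateral cortices. These correspond to 2.23, 1.69 and 0.956 CPM and to 0.784, 0.521 and 0.277 CPM. The regions did not overlap, but infarct 3 was close to contralateral cortex 1. The log2 fold change was 1.53 (SE 0.51, interval 0.40 to 2.67, adjusted *p* = 0.0228). This call rested on few reads and was lost when infarct 1, infarct 2, contralateral cortex 2 or contralateral cortex 3 was left out, with adjusted *p* between 0.0555 and 0.0786, and against a fold change of 2 with glmTreat (adjusted *p* = 0.15).

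*Lta4h* (chr10:93453411-93484875), the hydrolase that makes leukotriene B4, is expressed in most cell types and was the most abundant gene of this branch. Its CPM were 86.2, 66.9 and 62.0 in infarcts and 32.4, 36.6 and 39.8 in contralateral cortices. All infarcts lay above all contralateral cortices, and the log2 fold change was 0.98 (SE 0.17, interval 0.60 to 1.37, adjusted *p* = 6.55e-04). It therefore passed the adjusted *p* threshold and missed the fold change threshold. It passed both with no filter on low counts (1.002), with a minimum of 10 counts per library (1.015), and when infarct 2, infarct 3 or contralateral cortex 3 was left out (1.051, 1.093 and 1.053). Scaling by library totals gave 1.185, or 0.98 less the shift of 0.20 that this scaling gave the median of all genes.

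*Ltc4s* (chr11:50236461-50238616), the enzyme that commits leukotriene A4 to the cysteinyl leukotrienes, was barely detected. The infarcts held 1, 4 and 2 reads and the contralateral cortices 3, 4 and 0, for mean levels of 0.170 ± 0.111 and 0.139 ± 0.131 CPM. The regions overlapped and the gene was left out of the test by the filter on low counts. A difference was not detectable at this depth. DESeq2, which kept it, gave a log2 fold change of 0.25 and did not call it.

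The cyclooxygenases, which convert arachidonic acid into prostaglandin H2, were both near the level of the contralateral cortex. *Ptgs1* (chr2:36230426-36252272), the constitutive enzyme, had 15.9, 14.1 and 19.0 CPM in infarcts against 13.1, 13.5 and 12.7 CPM contralaterally. The difference of 0.32 on the log2 scale was not called (SE 0.18, interval -0.08 to 0.72, adjusted *p* = 0.143). *Ptgs2* (chr1:150100031-150108227), the inducible enzyme, had 41.1, 55.3 and 41.4 CPM in infarcts and 35.9, 38.1 and 33.5 CPM in contralateral cortices. The corresponding difference was 0.36 and was not called either (SE 0.17, interval -0.02 to 0.74, adjusted *p* = 0.0866). In both genes the infarcts were slightly above all contralateral cortices, the intervals of the difference included 0, and a 2-fold increase lay outside them.

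The ratio of *Ptgs1* to *Ptgs2* within a library, in counts per kilobase, was 0.457, 0.301 and 0.542 in infarcts and 0.429, 0.419 and 0.448 in contralateral cortices. Means were 0.433 ± 0.122 and 0.432 ± 0.0148, and the contralateral values lay inside the range of the infarcts (exact two-sided permutation test on log2 ratios, *p* = 1, where 0.1 is the smallest that 3 against 3 libraries allow). The ratio was thus more variable among infarcts, in which infarct 2 had the highest *Ptgs2* and the lowest *Ptgs1*. All 8 markers of neurons in common were called lower, with a summed level of 632 to 1608 CPM in infarcts and 8767 to 9523 CPM in contralateral cortices. Of 10 activity-dependent neuronal genes, a class to which *Ptgs2* is commonly assigned, 7 were called lower, 1 higher and 2 were not called (summed level 128 to 196 CPM in infarcts and 451 to 649 CPM in contralateral cortices). Over all tested genes, 20.9% were called lower and 25.7% higher. The part of these neuronal transcripts in the *Ptgs2* level was not tested. In bulk tissue, fewer cells of a type and less RNA per cell cannot be told apart.

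The 3 terminal synthases of the prostanoid branch were all called higher. *Tbxas1* (chr6:38875404-39084585), thromboxane A synthase, was counted 704, 686 and 600 times in infarcts against 45, 34 and 29 times in contralateral cortices, or 56.1, 50.4 and 41.0 CPM against 2.35, 2.21 and 2.68 CPM. Replicates of a region lay close together and the regions were far apart, with a log2 fold change of 4.35 (SE 0.21, interval 3.89 to 4.81, adjusted *p* = 2.49e-07).

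*Hpgds* (chr6:65117293-65144908), the hematopoietic prostaglandin D synthase, had 119, 139.5 and 98.6 CPM in infarcts and 10.97, 10.1 and 11.5 CPM in contralateral cortices. Its regions were also well separated, with a log2 fold change of 3.45 (SE 0.18, interval 3.05 to 3.85, adjusted *p* = 3.70e-07). The values of *Tbxas1* and *Hpgds* correspond to 20.4-fold and 10.95-fold higher expression in infarcts.

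*Ptgds* (chr2:25466709-25470046), the lipocalin-type prostaglandin D synthase, is a different protein that carries out the same step and is secreted into cerebrospinal fluid. It had 2076, 743 and 1279 CPM in infarcts 1, 2 and 3 and 244, 187 and 245 CPM in contralateral cortices. All infarcts were above all contralateral cortices, but infarct 1 held 2.79 times as much as infarct 2, and the coefficient of variation among infarcts was 49.1%, against 17.2% for *Hpgds* and 15.5% for *Tbxas1*. The log2 fold change was 2.60 (SE 0.35, interval 1.79 to 3.41, adjusted *p* = 2.45e-04). It ranged from 2.187 without infarct 1 to 2.92 without infarct 2 and was called in each case.

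Because both genes make prostaglandin D2, their ratio within a library was examined. *Hpgds* to *Ptgds*, in counts per kilobase, was 0.0147, 0.0482 and 0.0198 in infarcts and 0.0115, 0.0138 and 0.0121 in contralateral cortices. *Ptgds* transcripts thus exceeded *Hpgds* transcripts in every library. All infarct ratios were above all contralateral ratios (difference of mean log2 ratios 0.95, exact two-sided permutation *p* = 0.1, the smallest possible), and the difference was 0.46 without infarct 2.

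The order of the infarcts in *Ptgds*, with infarct 1 highest and infarct 2 lowest, was found in 4 of the 13 genes of the list of fibroblasts and leptomeninges. Relative to the mean of the 3 infarcts, *Ptgds* was at 1.52, 0.544 and 0.936 in infarcts 1, 2 and 3. The 4 genes, which were singled out after their values were seen, were *Ogn*, a proteoglycan gene, at 1.51, 0.588 and 0.898, and the solute carriers *Slc6a20a* (1.67, 0.444 and 0.882), *Slc22a6* (1.59, 0.478 and 0.936) and *Slc6a13* (1.51, 0.520 and 0.967). The other 9 genes followed other orders, and 8 of them, *Dcn* and *Lum* included, were lowest in infarct 3. The summed level of the list was also lowest there, at 6925, 6107 and 5416 CPM in infarcts 1, 2 and 3. Of that list, 13 of 13 genes were called higher, with a summed level of 288 to 398 CPM in contralateral cortices, and no gene was at 0. Of the other sources known for *Ptgds*, the oligodendrocyte list had 4 of 10 genes called higher (2.28-fold as summed CPM, 4600 to 7409 CPM in infarcts and 2373 to 2805 CPM in contralateral cortices) and was highest in infarct 3. In the choroid plexus list 3 of 5 tested genes were called higher (44.7 to 55.1 against 7.52 to 8.12 CPM), but its defining genes *Ttr* and *Otx2* were at or near 0, with 0, 3 and 3 and with 1, 0 and 0 counts in infarcts and 0 in all contralateral cortices. Over all tested genes, 25.7% were called higher. The part of these tissues in the *Ptgds* difference was not tested.

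**Figure D2:**
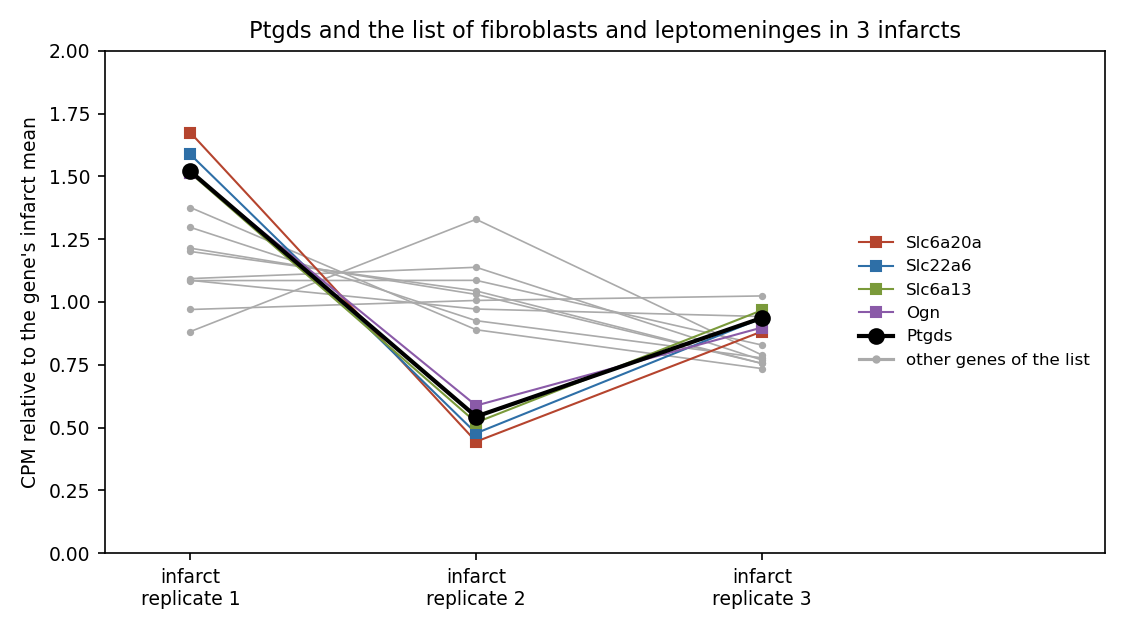
CPM of *Ptgds* (black) and of the 13 genes of the fibroblast and leptomeninges list in each infarct, divided by the mean of the gene over the 3 infarcts, with lines joining the values of a gene. The 4 colored genes were picked out for following the order of *Ptgds*, and the 9 gray genes followed other orders.

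*Pla2g7* (chr17:43568098-43612201), the secreted PAF acetylhydrolase also known as lipoprotein-associated phospholipase A2, had the second highest level per kilobase of the 10 genes in both regions. It had 441, 364 and 417 CPM in infarcts and 148, 120 and 178 CPM in contralateral cortices. The regions did not overlap and the spread among infarcts was the smallest of the 10 genes, with a coefficient of variation of 9.64%. The log2 fold change was 1.45 (SE 0.18, interval 1.05 to 1.86, adjusted *p* = 7.33e-05), and the gene was called under every alternative setting, including glmTreat against a fold change of 2 (adjusted *p* = 0.0118).

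Cells that are known sources of these enzymes were represented in infarcts. The marker counts below stand beside 25.7% of all tested genes called higher and 20.9% called lower. All 10 markers that microglia and macrophages have in common were called higher, with a summed level of 1692 to 2266 CPM in infarcts and 224 to 302 CPM in contralateral cortices. *Csf1r*, a growth factor receptor and the most abundant of them, averaged 459 ± 69.9 and 118 ± 20.7 CPM. Of the macrophage list 9 of 10 genes were called higher (847 to 1772 against 82.8 to 105 CPM), and of the homeostatic microglia list 4 higher and 1 lower of 10 (752 to 817 against 258 to 284 CPM). All 8 lymphocyte markers were called higher (105 to 313 against 0.456 to 0.923 CPM), and *Cd2* was at 0 in every contralateral cortex. All 7 tested neutrophil markers of 10 were called higher (67.0 to 83.6 against 4.75 to 6.65 CPM). This sum was mostly *Csf3r*, at 53.7, 48.5 and 44.9 CPM in infarcts and 4.65, 5.21 and 5.35 CPM in contralateral cortices. *Ly6g*, which defines these cells, had 0, 2 and 0 counts in infarcts and *Retnlg* 1, 7 and 11, and both were at 0 in every contralateral cortex. Of the other called neutrophil markers, *Mmp8* had 124, 154 and 127 counts in infarcts against 0, 1 and 0. *S100a8* had 120, 118 and 91 against 2, 5 and 6, and *Cxcr2* 69, 43 and 39 against 0, 0 and 1. *S100a9*, *Ngp* and *Ltf* were called with at most 53 counts in a library. Of 10 mast cell markers 4 were tested. *Cpa3* (11, 28 and 42 counts against 2, 1 and 1, log2 fold change 4.34) and *Hdc* (2.26) were higher and *Slc18a2* (-1.03) was lower. The sum of the 10 (41.4 to 77.7 against 69.6 to 79.7 CPM) was mostly *Kit*, which other brain cells also express and which was not called. Of the genes at 0 in all contralateral cortices, *Ms4a2*, a subunit of the IgE receptor, had 0, 3 and 0 counts in infarcts. *Mcpt4* had 2, 1 and 10, *Fcer1a* 2, 2 and 1, and *Tpsab1* 1, 0 and 0. Of 8 platelet markers 4 were tested, with *Pf4* higher (12, 11 and 11 counts against 3, 3 and 2, log2 fold change 2.18) and *Gp1bb* lower (-2.04). The sum (5.74 to 7.10 against 5.93 to 9.25 CPM) was mostly *Gp1bb* in contralateral cortices. Of the exon bases of *Gp1bb*, 92.9% lie under other genes of the same strand. At 0 in all contralateral cortices were *Ppbp*, with 10, 8 and 17 counts in infarcts, and *Gp6*, with 1, 0 and 0.

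Of the remaining lists, 4 of 9 endothelial markers were called higher (574 to 773 against 384 to 441 CPM), 2 of 8 astrocyte markers were higher and 1 lower (5092 to 7596 against 13170 to 14170 CPM), and 9 of 10 markers of cortical excitatory neurons were lower (358 to 1171 against 4526 to 4943 CPM). The astrocyte sum was mostly *Slc1a2*, which averaged 7615 CPM over the 6 libraries. The median log2 fold change of that list was 0.615. In 5 of its 8 genes every infarct lay above every contralateral cortex, beside 37.6% of all tested genes. Infarct 3 held the most neuronal transcripts of the 3 infarcts. The part of any of these cells in the differences of the enzyme genes was not tested.

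To set the size of each difference beside that of the myeloid markers, CPM was divided by the geometric mean of the 10 common markers in the same library, which was 96.1 to 130 CPM in infarcts and 6.27 to 7.38 CPM in contralateral cortices, a log2 difference of 3.96. Per myeloid marker level, *Alox5ap* was at 0.0559, 0.0581 and 0.0709 in infarcts and 0.0437, 0.0311 and 0.0250 in contralateral cortices, a log2 difference of 0.92. *Tbxas1* was at 0.433, 0.524 and 0.405 and at 0.328, 0.353 and 0.363, a difference of 0.38. In these 2 genes the infarcts remained above the contralateral cortices. *Hpgds* was at 0.918, 1.45 and 0.975 in infarcts and 1.53, 1.61 and 1.56 in contralateral cortices, a difference of -0.52, so it lay below. With the summed CPM of the same markers as the denominator, the log2 differences of *Alox5ap* and *Tbxas1* were 2.04 and 1.501 and that of *Hpgds* was 0.60, which turned its direction. The other 6 genes with reads in every library had negative differences with both denominators, from -1.48 for *Ptgds* to -3.66 for *Ptgs1* with the geometric mean. With the summed CPM, the regions overlapped for *Ptgds* (-0.35) and *Alox5* (-1.17). These values are descriptions without a test.

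**Figure D3:**
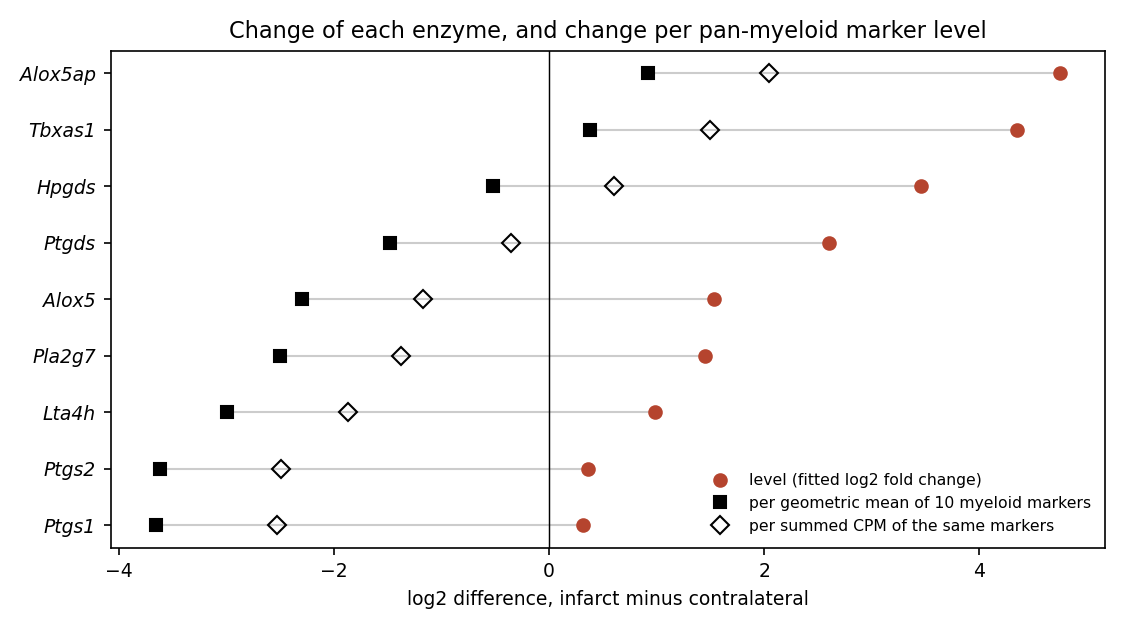
Log2 difference between infarcts and contralateral cortices for 9 enzyme genes, as the fitted fold change of the level (red circles), per geometric mean of 10 myeloid markers (black squares) and per summed CPM of the same markers (open diamonds). *Alox5ap* and *Tbxas1* stay above 0 on all 3 measures, *Hpgds* changes side between the denominators, and *Ptgs1* and *Ptgs2* fall to -3.66 and -3.62 with the geometric mean.

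The steps around the 10 enzymes were described with 66 further genes in 8 lists, of which 58 were tested. Of these, 33 (56.9%) were called higher and 12 (20.7%) lower, beside 25.7% and 20.9% of all tested genes, with a median log2 fold change of 1.43 beside 0.03 over all tested genes. In the arachidonic acid release list, 5 of 13 tested genes (38.5%) were higher and 3 (23.1%) lower, beside the same 25.7% and 20.9% (median 0.26). *Pla2g4a*, a cytosolic phospholipase A2 that frees arachidonic acid, was counted 1060, 879 and 711 times in infarcts and 100, 55 and 48 times in contralateral cortices (log2 fold change 3.89, SE 0.26). *Pla2g2d*, a secreted phospholipase, was higher by 5.29 (SE 0.60). *Pla2g2e*, another secreted one, was counted 15, 83 and 56 times in infarcts and 0 times in every contralateral cortex, at least 17.7-fold higher when each of the latter is set to 3 counts. Among the lower genes, *Pla2g4e*, a phospholipase of the *Pla2g4a* family, fell by 4.87 on the log2 scale (SE 0.39), and *Faah*, which hydrolyzes the endocannabinoid anandamide, fell by 2.12 (SE 0.39).

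Among 6 other lipoxygenases, *Alox12* was called higher (2.20, SE 0.59) and *Alox12b*, *Alox8* and *Aloxe3* were lower, with log2 fold changes from -2.51 to -2.13. The list's median was -2.25. Of its 4 tested genes 25% were higher and 75% lower, beside 25.7% and 20.9% of all tested genes. *Alox15*, the 12/15-lipoxygenase of macrophages, was counted 4, 33 and 22 times in infarcts and 0 times in all contralateral cortices, and was left out of the test by the filter.

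Of the 9 genes that convert and export cysteinyl leukotrienes or degrade leukotriene B4, 8 (88.9%) were called higher and 1 (11.1%) lower. The shares over all tested genes were 25.7% and 20.9%. The median of the 9 genes was 4.71, or 2.45 with *Dpep1* at its bound. *Mgst2*, a microsomal glutathione transferase able to make leukotriene C4, had 49, 69 and 29 reads in infarcts against 5, 0 and 1 (log2 fold change 4.72, SE 0.71), while *Mgst3* of the same family was lower (-2.48, SE 0.30). *Dpep2*, a dipeptidase that makes leukotriene E4 from leukotriene D4, had 155, 304 and 217 reads in infarcts against 0, 1 and 0, a ratio of 751 with a 95% counting interval of 134 to 29700. Of its exon bases, 40.4% lie under *Gm22972* and a further entry named *Dpep2* on the same strand, and 14.7% under genes of the other strand. *Dpep1*, with the same activity as *Dpep2*, had 13, 16 and 18 counts against 0 in every contralateral cortex, at least 5.47-fold higher. *Abcc1*, which exports leukotriene C4, was higher by 1.62 (SE 0.17).

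Of 6 leukotriene receptors, 4 were tested, and 75% of these were called higher, beside 25.7% of all tested genes. *Ltb4r1*, the high affinity receptor for leukotriene B4, was called higher (20, 16 and 21 counts against 3, 4 and 2, log2 fold change 2.76, SE 0.49). The cysteinyl leukotriene receptors *Cysltr1* (295, 366 and 244 against 59, 38 and 15 counts, 3.23, SE 0.31) and *Cysltr2* (27, 58 and 39 against 9, 6 and 6 counts, 2.68, SE 0.43) were also higher. *Gpr17*, a receptor of oligodendrocyte precursors placed in this list for its relation to the cysteinyl leukotriene receptors, had a log2 fold change of -0.37 (SE 0.30, adjusted *p* = 0.307). *Ltb4r2* and *Oxgr1* had at most 10 counts in any library and were not tested.

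**Figure D4:**
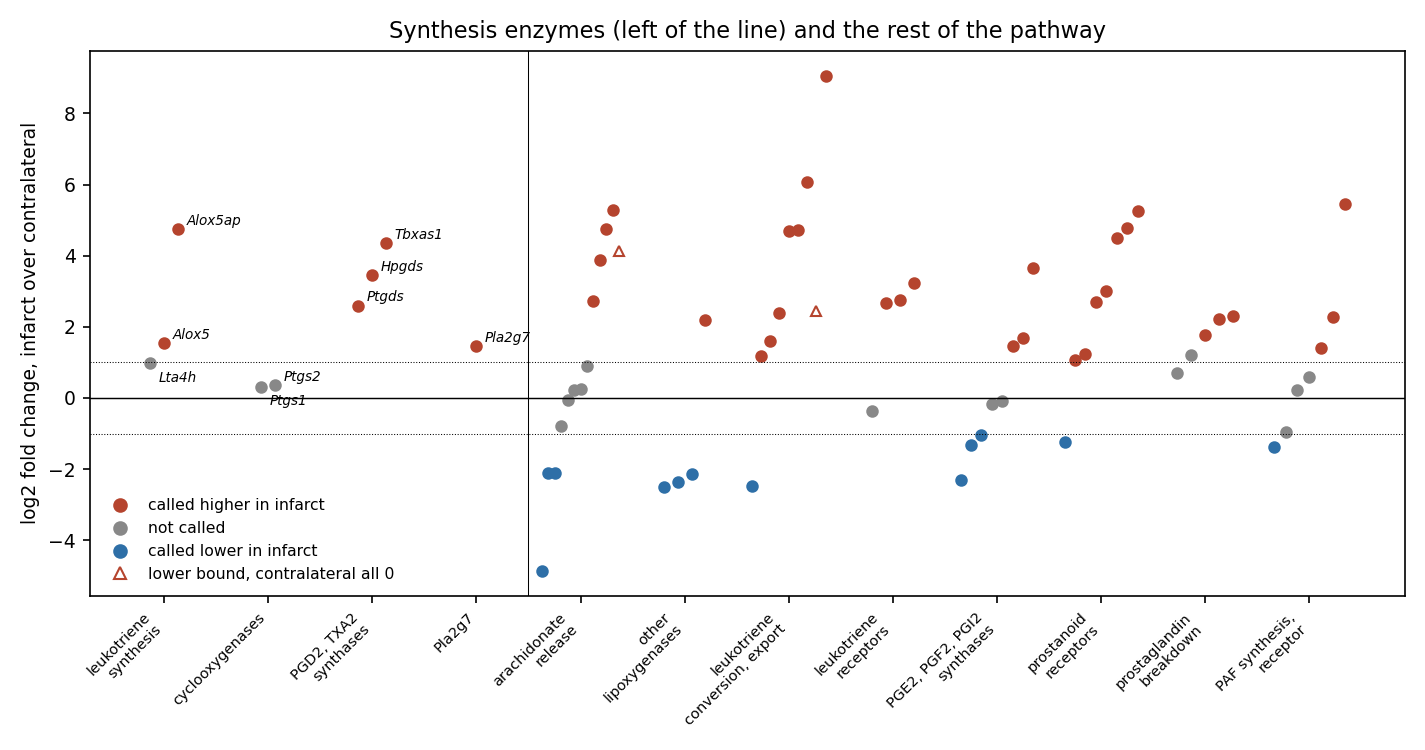
Fitted log2 fold changes of the 9 tested enzyme genes and of 58 further genes of the pathway, grouped by role, with genes called higher in red, lower in blue and not called in gray. Open triangles are lower bounds for *Pla2g2e* and *Dpep1*, and dotted lines mark log2 fold changes of -1 and 1. The cyclooxygenases lie near 0, whereas 7 of 8 tested prostanoid receptors and 8 of 9 genes of leukotriene conversion and export are in red. Over all tested genes, 25.7% were called higher.

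Among the other prostanoid synthases, with a median of -0.14, 3 of 8 genes (37.5%) were higher and 3 (37.5%) lower. The shares over all tested genes were 25.7% and 20.9%. *Ptges*, the inducible prostaglandin E synthase, had 793, 879 and 539 reads in infarcts against 63, 92 and 42 (log2 fold change 3.64, SE 0.31), and *Ptgis*, the prostacyclin synthase, was higher by 1.70 (SE 0.24). *Akr1b3*, an aldo-keto reductase with prostaglandin F synthase activity, was also higher (1.47, SE 0.16), averaging 116 ± 12.2 CPM in the infarcts against 42.0 ± 6.46 CPM on the contralateral side. *Ptges2*, a further prostaglandin E synthase, was lower (-1.05, SE 0.19), as were *Prxl2b* (-1.32, SE 0.24) and *Akr1c18* (-2.31, SE 0.67), which are assigned to prostaglandin F synthesis.

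Of 9 prostanoid receptors, 8 were tested (median 2.86). Among these, 7 (87.5%) were higher and 1 (12.5%) lower, beside 25.7% and 20.9% of all tested genes. *Ptgdr*, a receptor for the prostaglandin D2 that *Hpgds* and *Ptgds* make, had 803, 1427 and 825 reads in infarcts against 42, 28 and 19 (log2 fold change 5.27, SE 0.29). *Ptgdr2*, the other receptor for it, had at most 3 counts in any library. The prostaglandin E2 receptors *Ptger1* (1.05, SE 0.21), *Ptger2* (4.49, SE 0.50) and *Ptger4* (3.02, SE 0.24) were called higher and *Ptger3* lower (-1.23, SE 0.26). *Ptgir* for prostacyclin was higher by 4.78 (SE 0.57) and *Ptgfr* for prostaglandin F2 alpha by 2.70 (SE 0.25). *Tbxa2r*, the receptor for the product of *Tbxas1*, had 33, 20 and 19 reads in infarcts against 14, 11 and 9, with a smaller difference of 1.24 (SE 0.43).

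Of 5 genes for the uptake, export and breakdown of prostaglandins, 3 (60%) were called higher and none lower by edgeR. The shares over all tested genes were 25.7% and 20.9%. *Hpgd*, the dehydrogenase that inactivates prostaglandins, was higher by 2.30 (SE 0.20), and the prostaglandin transporter *Slco2a1* by 2.22 (SE 0.22). The third, *Abcc4*, is in the list for export rather than breakdown and was higher by 1.78 (SE 0.16). The number lower at an unadjusted *p* under 0.05 was 0 here too. Around PAF, 3 of 7 genes (42.9%) were higher and 1 (14.3%) lower, beside the same 25.7% and 20.9% (median 0.58). *Ptafr*, the PAF receptor, had 2226, 1628 and 1283 reads in infarcts against 47, 65 and 22 (log2 fold change 5.44, SE 0.37), and *Lpcat2*, which makes PAF, was higher by 2.28 (SE 0.21). *Pafah2*, an intracellular PAF acetylhydrolase, was higher by 1.39 (SE 0.20), with means of 18.7 CPM (infarct) and 7.07 CPM (contralateral). *Pafah1b1*, a subunit of another intracellular PAF acetylhydrolase that is abundant in neurons, was lower (-1.37, SE 0.18).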

How the data were processed

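Per the labels, 3 infarcts and 3 contralateral cortices were sequenced, as stranded mRNA libraries per the paper's methods. Per the labels, bcl2fastq 2.19, Trimmomatic 0.32, STAR 2.5.2b and HTSeq were used on GRCm38. The authors deposited raw counts per Ensembl gene without normalization. The version, annotation and strand setting of htseq-count are not given in the sources used here. The 5 tallies per table that name no gene, 26.6% to 34.3% of a library's tallied reads, were left out of library sizes and tests.

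The tests were run with edgeR 4.0.16 (R 4.3.3), using filterByExpr, TMM scaling and robust quasi-likelihood tests with region as the only term. Benjamini-Hochberg adjustment covered the 15554 tested genes, and a call required both an adjusted *p* under 0.05 and an absolute log2 fold change over 1. The errors of fold changes were derived from the quasi-likelihood *F* statistic. The coefficient of biological variation was 0.22. Positions, lengths and overlaps come from GENCODE M21 on GRCm38, in which 45229 of 46078 identifiers were found, and upstream bases from RefSeq (GRCm38.p6). Lower bounds set each library at 0 to 3 counts and, like counting intervals, cover counting error only. The procedure was tested on simulated data. Summaries used Python 3.11.15 and SciPy 1.17.1.

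The genes and lists were chosen with earlier results of these data known. The 10 enzyme genes are all given. Genes of the pathway lists that were called or left out by the filter could be named, as could all tested receptors, and of each marker list the most abundant gene and those at 0. Called mast cell, platelet and neutrophil markers were named in addition, after their values were seen. The ratio of *Alox5* to *Ltc4s* was planned but not computed, since *Ltc4s* had 0 counts in 1 library. Alternatives were DESeq2 1.42.0, limma voom (limma 3.58.1), RLE, upper quartile and library total scaling, no filter, at least 10 counts in every library, an adjusted *p* threshold alone, glmTreat against a fold change of 2, the replicate number as a block, and each library left out.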

Additional observations from a re-analysis of the deposited data

How the results depend on the processing

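Under the alternatives tried, the number of the 10 enzyme genes called higher was between 5 and 7, none was called lower, and none of their log2 fold changes was negative. *Alox5* and *Lta4h* were the genes whose calls changed, as given above, and requiring 10 counts in every library left *Alox5* and *Alox5ap* untested. That filter also lowered the further pathway genes called higher from 33 to 18 and lower from 12 to 6, since fewer genes were tested. With scaling by library totals the median over all genes moved by 0.20 on the log2 scale, to 0.23. Relative to that shift, *Ptgs1* and *Ptgs2* were at 0.32 and 0.36, and without removing it they had adjusted *p* values of 0.0285 and 0.0179 and stayed under the fold change threshold. Without infarct 1, *Ptgs2* had an adjusted *p* of 0.0488 at a log2 fold change of 0.45.

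Per summed rather than geometric mean myeloid marker level, the log2 differences were -1.17 for *Alox5*, 2.04 for *Alox5ap*, -1.86 for *Lta4h*, -2.53 for *Ptgs1*, -2.49 for *Ptgs2*, 0.60 for *Hpgds* (reversed from -0.52), -0.35 for *Ptgds*, 1.501 for *Tbxas1* and -1.37 for *Pla2g7*. The denominator sets these values, and the cause of the difference was not tested. The log2 difference of the *Ptgs1* to *Ptgs2* ratio was between -0.22 and 0.20 with 1 library left out, and that of *Hpgds* to *Ptgds* between 0.46 and 1.31.

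The replicate numbers were not used to pair the samples, since the labels do not say that a number is a mouse. The correlations of deviations between infarcts and cortices of the same number were -0.19, 0.10 and 0.0011. Those of different numbers ranged from -0.24 to 0.18. With 3 samples per region, these values do not show whether samples of the same number came from the same mouse or from different mice. With the replicate number as a block, 6 enzyme genes were higher and 0 lower, 31 and 12 of the further pathway genes, and 3945 and 3222 of all genes. Depth limits *Ltc4s* and *Alox5*, which had at most 4 and 28 counts in a library.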

Other observations

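The spread of *Ptgds* among infarcts was set beside that of other genes, after its values were seen. Among 8794 genes with over 10 CPM in every infarct, the median ratio of infarct 1 to infarct 2 was 1.02, and 18 genes (0.205%), *Ptgds* included, had a ratio of at least 2.79. In 15 of the 18, *Ptgds* included, infarct 3 lay between the other 2 infarcts. The genes were selected for infarct 1 far above infarct 2, which by itself makes this position of infarct 3 likely. No test was made of this pattern, which rests on 3 libraries.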
